A study of Mus musculus with 12 samples.

Results

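The Bcl2 family genes examined here are Mcl1, Bcl2l1, Bcl2, Bak1, Bok, Bcl2l11, Bmf, Bid, Bad and Bik, which are 10 of 23136 loci with a gene name among 27914 loci in each library. They were taken by name, and each matched 1 locus. The rule holds no threshold on a fold change, but the family was picked with earlier results of these data known. Their RNA was measured by sequencing of oligo-dT selected RNA in 12 mouse libraries, 3 in each of 4 groups, all from cells of strain C57 Bl/6J. The EpiLC group is wild-type epiblast-like cells, made from embryonic stem cells (ESC) on fibronectin with Fgf2 at 12 ng/ml, Activin A at 20 ng/ml and 1% KOSR (a serum replacement) for 48 h. The Sirt1KO Otx2KD group is ESC with both a Sirt1 knockout and an Otx2 knockdown. The Sirt1KO group is ESC with the knockout alone, so that the knockdown was always set against, or added to, the same knockout. The last group is wild-type ESC. The 3 ESC groups grew on gelatin in serum-free N2B27 medium with the MEK inhibitor PD0325901 at 1 uM, the GSK3 inhibitor CHIR99021 at 3 uM and LIF, so in EpiLC the cell state and the medium cannot be told apart. Which part of Sirt1 is deleted, by what means Otx2 was knocked down and whether a line is 1 clone are not stated in the labels. They also do not say whether replicates were separate cultures, so p-values measure the spread between these libraries, which may be technical. The design asks how expression changes in the passage from naive ESC to primed EpiLC compare with those after Sirt1 loss and Otx2 knockdown.

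Proteins of the Bcl2 family decide whether the mitochondrial outer membrane is opened in the intrinsic pathway of apoptosis. Anti-apoptotic members such as Mcl1 and Bcl-xL (from Bcl2l1) bind and hold back the effectors Bak and Bax, which form pores that release cytochrome c, and BH3-only members such as Bim (from Bcl2l11) oppose the guardians or activate the effectors. Pluripotent cells are known to be primed for apoptosis, and cells of the early epiblast die readily when they compete poorly with their neighbours.

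The BH3 motif is what the family shares, and the coding stretch for it is shown for the 10 members because it is the part through which a BH3-only protein binds the groove of a guardian. The stretches are from the GENCODE M21 transcripts on GRCm38, 36 bases each, read 5′ to 3′ on the coding strand. Capitals mark the leucine codon and the pair of codons for a small residue (glycine, alanine or serine) and aspartate.
Mcl1 (chr3:95659427-95659462, plus strand, exon 1 of 3): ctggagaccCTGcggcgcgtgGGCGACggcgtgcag
Bcl2l1 (chr2:152829697-152829732, minus strand, exon 2 of 3): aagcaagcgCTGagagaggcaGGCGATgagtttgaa
Bcl2 (chr1:106712575-106712610, minus strand, exon 1 of 2): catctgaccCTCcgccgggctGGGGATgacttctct
Bak1 (chr17:27022531-27022566, minus strand, exon 4 of 6): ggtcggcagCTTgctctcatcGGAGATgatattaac
Bok (chr1:93686648-93689170, plus strand, across the junction of exons 2 and 3 of 5, the span including the intron): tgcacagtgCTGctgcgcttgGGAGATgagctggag
Bcl2l11 (chr2:128147141-128147176, plus strand, exon 3 of 4): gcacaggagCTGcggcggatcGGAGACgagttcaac
Bmf (chr2:118545100-118545135, minus strand, exon 4 of 5): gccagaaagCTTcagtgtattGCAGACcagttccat
Bid (chr6:120897289-120897324, minus strand, exon 4 of 6): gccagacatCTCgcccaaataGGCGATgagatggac
Bad (chr19:6950783-6950818, plus strand, exon 3 of 4): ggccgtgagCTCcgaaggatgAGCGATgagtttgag
Bik (chr15:83543075-83543110, plus strand, exon 3 of 5): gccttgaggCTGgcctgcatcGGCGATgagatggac
The letter pattern used to find them was written with the BH3 motif of the family known, and it occurred in 753 of 21476 mouse proteins, or 3.51%. Against the Bcl2l11 stretch, the others had between 18 and 22 equal bases of 36, with 22 in Bad, Bak1 and Bmf and 18 in Bcl2 and Bid. The closest match was therefore not confined to the BH3-only members, since Bak1 is an effector.

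Values are FPKM (fragments per kilobase of transcript, scaled to the mapped fragments of the library), so levels may be compared between genes per length. Fold changes are differences of log2(FPKM + 1) with their standard error (SE), and p-values are from limma with Benjamini-Hochberg adjustment over the 12320 named loci with at least 1 FPKM in at least 3 libraries. A gene is said to have risen or fallen where the adjusted p was under 0.05. Of the 10 members, 9 passed this filter, and Bcl2 did not. Coordinates of loci are those of the deposited files, on mm9.

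Relative depth, from the FPKM that a fragment adds, was between 0.767 and 1.33 times that of wild-type ESC replicate 1. Sirt1 stood at 15.3 to 15.7 FPKM in Sirt1KO and 25.4 to 26.2 FPKM in wild-type ESC, and Otx2 at 5.61 to 6.33 FPKM in Sirt1KO Otx2KD, 22.2 to 34.2 FPKM in Sirt1KO and 6.85 to 7.68 FPKM in wild-type ESC. Summed over 6 markers of primed cells, the level was 961 to 997 FPKM in EpiLC, 49.99 to 53.0 FPKM in Sirt1KO Otx2KD, 219 to 321 FPKM in Sirt1KO and 34.3 to 38.3 FPKM in wild-type ESC. Summed over 7 naive markers it was 228 to 234 FPKM in EpiLC, 928 to 947 FPKM in Sirt1KO Otx2KD, 726 to 841 FPKM in Sirt1KO and 934 to 947 FPKM in wild-type ESC, and over 4 general pluripotency markers 962 FPKM or more in every library. Against wild-type ESC, Klf4 and Tfcp2l1 rose in Sirt1KO and the other 5 of these 7 naive markers fell. Nanog, listed under a merged name, was not in the sum and averaged 542 FPKM in wild-type ESC and 388 FPKM in Sirt1KO. Among the general markers, Utf1 rose in EpiLC over wild-type ESC, at 412 against 36.8 FPKM, while Sox2 and Sall4 fell. Within Sirt1KO, replicate 1 stood apart, with a primed sum of 321 FPKM where the other libraries had 229 and 219 FPKM, and the lowest naive sum, 726 FPKM. Summed trophoblast markers, mostly Tfap2c, were at 8.13 to 9.65 FPKM in EpiLC, 57.1 to 58.7 FPKM in Sirt1KO Otx2KD, 34.7 to 39.9 FPKM in Sirt1KO and 82.1 to 87.1 FPKM in wild-type ESC, with Cdx2, Elf5 and Hand1 at 0.335 FPKM or less in every library. The lower sum in Sirt1KO was that of Tfap2c, at 27.2 against 80.1 FPKM in wild-type ESC. Krt7 and Eomes rose there, at 6.78 against 1.93 FPKM and 3.56 against 1.99 FPKM. Summed blood markers, nearly all Cd68, were at 7.29 to 8.10 FPKM in EpiLC, 15.9 to 18.1 FPKM in Sirt1KO Otx2KD, 16.4 to 19.8 FPKM in Sirt1KO and 29.5 to 36.0 FPKM in wild-type ESC, and primitive endoderm markers reached 10.3 FPKM at most. The 14 fibroblast or feeder markers summed to 74.9 to 77.3 FPKM in EpiLC, 257 to 259 FPKM in Sirt1KO Otx2KD, 12.2 to 16.3 FPKM in Sirt1KO and 118 to 142 FPKM in wild-type ESC. Of these, Fap was listed at 0 in all 3 Sirt1KO libraries and Twist2 in 2 of them. In bulk RNA, fewer cells of a type and less RNA per cell cannot be told apart.

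Mcl1, a short-lived guardian that binds Bim and Bak, was by far the most abundant of the 3 anti-apoptotic members. The locus lies at chr3:95462642-95467101. It had 211, 217 and 219.7 FPKM in EpiLC, 134, 136 and 134 FPKM in Sirt1KO Otx2KD, 129.5, 126 and 128 FPKM in Sirt1KO and 169.5, 170.1 and 169 FPKM in wild-type ESC. No library of any group overlapped with another group, and the order was EpiLC, wild-type ESC, Sirt1KO Otx2KD, Sirt1KO from high to low. Mcl1 rose in EpiLC against wild-type ESC by 0.35 ± 0.03 (SE) on the log2 scale (adjusted p = 4.22e-08, limma). In Sirt1KO it fell by 0.41 ± 0.03 (adjusted p = 1.36e-08). Sirt1KO Otx2KD lay 0.33 ± 0.03 below wild-type ESC as well (log2 fold change -0.33, adjusted p = 2.78e-07). Against Sirt1KO, Sirt1KO Otx2KD was higher by 0.08 ± 0.03 (adjusted p = 0.0214), a call that was lost without Sirt1KO replicate 2 (adjusted p = 0.0781) and without Sirt1KO Otx2KD replicate 2 (adjusted p = 0.0676).

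Bcl2l1, which encodes Bcl-xL and lies at chr2:152606403-152657418, split the groups by genotype. Its levels were 15.3, 16.8 and 14.8 FPKM in EpiLC, 20.6, 21.3 and 20.9 FPKM in Sirt1KO Otx2KD, 20.2, 22.3 and 20.1 FPKM in Sirt1KO and 16.4, 13.8 and 15.2 FPKM in wild-type ESC. Both groups with the Sirt1 knockout lay above every wild-type library, EpiLC included. The rise over wild-type ESC was 0.44 ± 0.07 in Sirt1KO (adjusted p = 4.38e-05) and 0.45 ± 0.07 in Sirt1KO Otx2KD (adjusted p = 6.37e-05). EpiLC differed from wild-type ESC by 0.05 ± 0.07 (adjusted p = 0.542), and Sirt1KO Otx2KD from Sirt1KO by 0.00 ± 0.07 (adjusted p = 0.961), with overlapping libraries in both.

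Bcl2, the founding member of the family, at chr1:108434755-108610867, was close to the lower limit of what these libraries hold. It had 0.278, 0.321 and 0.289 FPKM in EpiLC, 0.169, 0.0564 and 0.158 FPKM in Sirt1KO Otx2KD, 0.245, 0.130 and 0.332 FPKM in Sirt1KO and 0.0427, 0.0867 and 0.126 FPKM in wild-type ESC. The EpiLC and Sirt1KO libraries all lay above the wild-type ESC libraries, but the gene was not tested. After scaling by relative depth, 10 of the 12 values were within 0.02 of whole multiples of the lowest, the highest at 10.02 times. If the lowest value is 1 fragment, Bcl2 rests on about 1 to 10 fragments a library.

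The mixture of RNA of the 3 anti-apoptotic members differed between the groups while Mcl1 led in all of them. Mcl1 made up 93.1% ± 0.435 of the summed FPKM of the 3 guardians in EpiLC, 86.5% ± 0.104 in Sirt1KO Otx2KD, 85.8% ± 0.812 in Sirt1KO and 91.8% ± 0.658 in wild-type ESC (SD, n = 3 each). The ratio of Bcl2l1 to Mcl1 was 0.0673 to 0.0772 in EpiLC, 0.153 to 0.156 in Sirt1KO Otx2KD, 0.156 to 0.177 in Sirt1KO and 0.0810 to 0.0968 in wild-type ESC. Ratios in both knockout groups lay above those of all wild-type libraries, and those of EpiLC lay below those of wild-type ESC. The sum of the 3 guardians averaged 232 FPKM in EpiLC, 156 FPKM in Sirt1KO Otx2KD, 149 FPKM in Sirt1KO and 185 FPKM in wild-type ESC, following Mcl1. The sum and shares leave out their relative Bcl2l2, which was picked after its values were seen. Bcl2l2 averaged 9.21 FPKM in EpiLC, 6.72 FPKM in Sirt1KO Otx2KD, 6.44 FPKM in Sirt1KO and 8.04 FPKM in wild-type ESC.

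**Figure D1:**
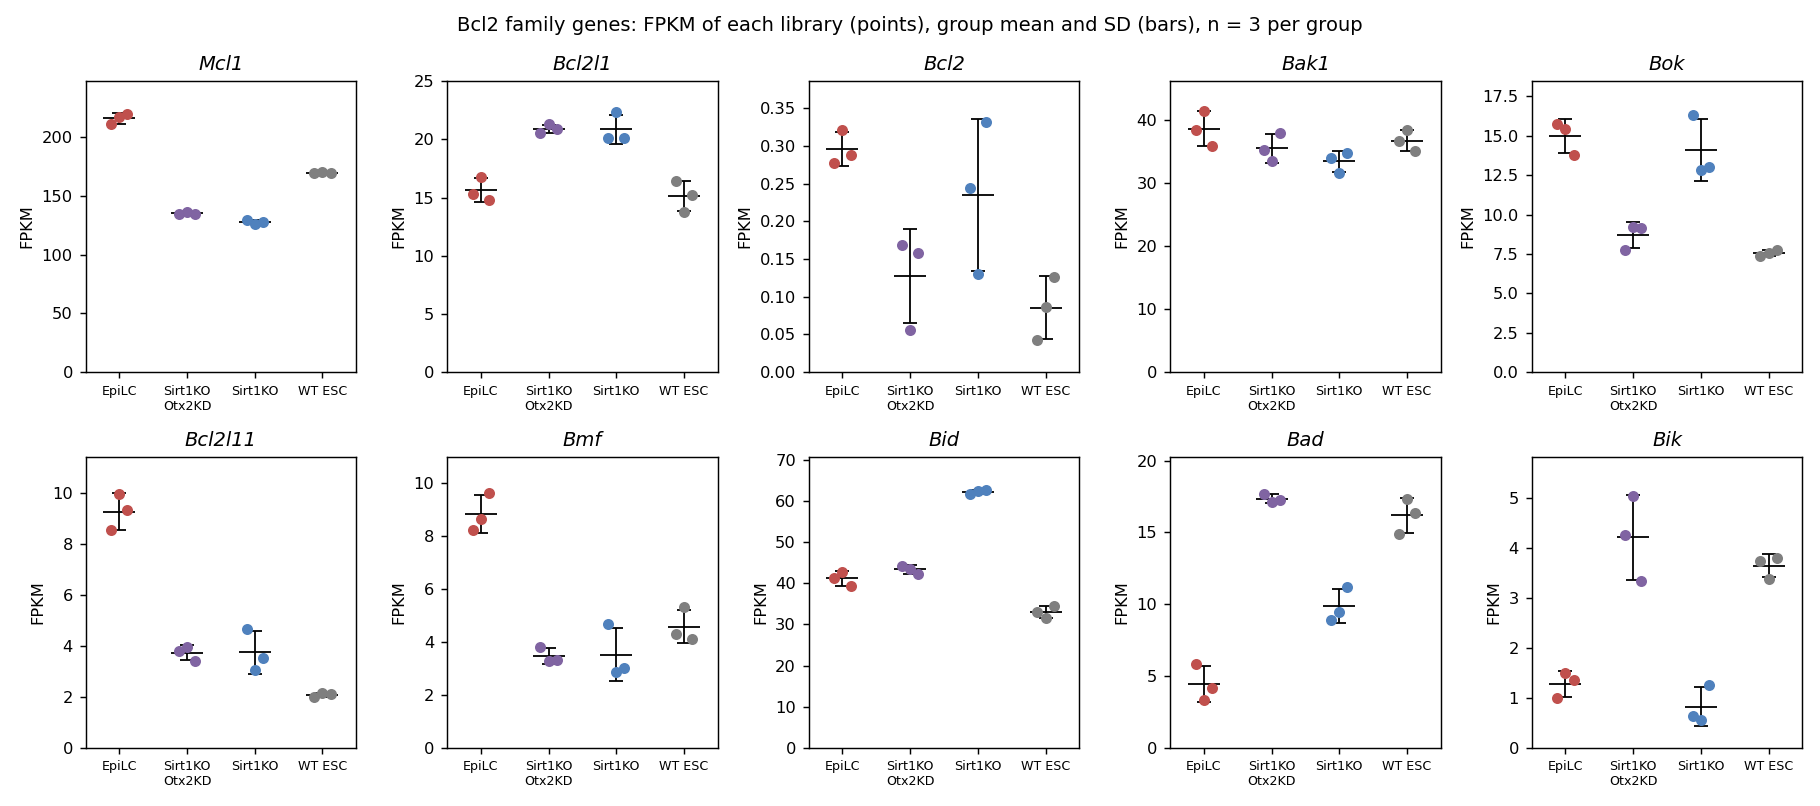
FPKM of the 10 members by group (points are libraries, bars the group mean and SD, n = 3 per group; each panel has its own axis from 0). Mcl1 lies highest in EpiLC, at 211 to 219.7 FPKM, Bid highest in Sirt1KO, and Bad and Bik lower in EpiLC and Sirt1KO than in the other 2 groups.

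Bak1 encodes Bak, an effector that sits in the mitochondrial outer membrane and oligomerises into pores. Its locus, chr17:27154979-27173323, had 38.4, 41.4 and 35.9 FPKM in EpiLC, 35.1, 33.4 and 37.8 FPKM in Sirt1KO Otx2KD, 33.9, 31.5 and 34.7 FPKM in Sirt1KO and 36.6, 38.4 and 35.0 FPKM in wild-type ESC. It was the steadiest member, with ranges that overlapped between EpiLC and wild-type ESC and between Sirt1KO Otx2KD and each of the other groups, while the Sirt1KO libraries lay below those of wild-type ESC by a narrow gap. Differences from wild-type ESC were 0.07 ± 0.06 in EpiLC (adjusted p = 0.319), -0.13 ± 0.06 in Sirt1KO (adjusted p = 0.0725) and -0.05 ± 0.06 in Sirt1KO Otx2KD (adjusted p = 0.523). Sirt1KO Otx2KD was 0.08 ± 0.06 above Sirt1KO (adjusted p = 0.252). The locus overlaps that of Ggnbp1, which stood between 2.75 and 4.35 FPKM in the group means, and no source used here says that reads were counted by strand.

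Bok, a relative of Bak and Bax that is known to reside largely on the endoplasmic reticulum, was called against wild-type ESC in EpiLC and Sirt1KO, where Bak1 was not. At chr1:95582270-95592339 it had 15.8, 15.4 and 13.8 FPKM in EpiLC, 7.77, 9.23 and 9.18 FPKM in Sirt1KO Otx2KD, 16.4, 12.9 and 13.1 FPKM in Sirt1KO and 7.40, 7.58 and 7.76 FPKM in wild-type ESC. EpiLC and Sirt1KO formed a high pair, and Sirt1KO replicate 1 was the highest library of all. Over wild-type ESC, Bok rose by 0.90 ± 0.09 in EpiLC (adjusted p = 4.88e-07) and by 0.81 ± 0.09 in Sirt1KO (adjusted p = 2.31e-06), or by 0.70 without that replicate. Sirt1KO Otx2KD fell by 0.63 ± 0.09 against Sirt1KO (adjusted p = 3.25e-05). It stood 0.18 ± 0.09 above wild-type ESC (adjusted p = 0.108), a difference that passed the threshold without Sirt1KO replicate 1 (adjusted p = 0.0465) or without Sirt1KO Otx2KD replicate 1 (adjusted p = 0.0393). EpiLC stood 0.09 ± 0.09 above Sirt1KO (adjusted p = 0.383), which became 0.19 and passed without Sirt1KO replicate 1 (adjusted p = 0.0413), and 0.22 with chromosome medians removed (adjusted p = 0.0485).

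Bcl2l11 encodes Bim, a BH3-only protein that binds all of the guardians and can activate Bak and Bax directly. Its levels, at chr2:127951773-127988283, were 8.54, 9.96 and 9.33 FPKM in EpiLC, 3.81, 3.97 and 3.41 FPKM in Sirt1KO Otx2KD, 4.67, 3.04 and 3.53 FPKM in Sirt1KO and 1.99, 2.14 and 2.09 FPKM in wild-type ESC. EpiLC stood apart at the top, and the 3 wild-type ESC libraries were lower than all others. EpiLC averaged 4.47 times the FPKM of wild-type ESC, with a log2 fold change of 1.74 ± 0.11 (adjusted p = 3.35e-09). Bcl2l11 rose by 0.61 ± 0.11 in Sirt1KO (adjusted p = 0.000189), or by 0.48 without Sirt1KO replicate 1, and by 0.62 ± 0.11 in Sirt1KO Otx2KD (adjusted p = 0.000255). The pair of knockout groups differed by 0.01 ± 0.11 (adjusted p = 0.957), so the level in Sirt1KO Otx2KD was not shown to differ from that in Sirt1KO. The summed primed markers ran from EpiLC through Sirt1KO and Sirt1KO Otx2KD to wild-type ESC, the order of the Bcl2l11 and Bok means, and their part in these results was not tested.

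Bmf, a BH3-only protein known to bind myosin motor complexes in healthy cells, at chr2:118354492-118375414, had 8.21, 8.65 and 9.62 FPKM in EpiLC. It had 3.80, 3.29 and 3.29 FPKM in Sirt1KO Otx2KD, 4.66, 2.86 and 3.02 FPKM in Sirt1KO and 4.31, 5.29 and 4.11 FPKM in wild-type ESC. EpiLC was again clear of all other libraries, while Sirt1KO replicate 1 lay inside the wild-type ESC range. Bmf rose in EpiLC by 0.82 ± 0.13 (adjusted p = 5.68e-05). In Sirt1KO the log2 fold change was -0.32 ± 0.13 with an adjusted p of 0.0451, but the call was lost in 9 of the 12 fits that left out a library (adjusted p up to 0.189, without Sirt1KO replicate 2) and in 5 of 9 other settings (up to 0.150). Leaving out Sirt1KO replicate 1 gave -0.49 (adjusted p = 0.000938). Sirt1KO Otx2KD stood at -0.32 ± 0.13 against wild-type ESC (adjusted p = 0.0550), and passed in 2 of the 12 fits that left out a library, without Sirt1KO replicate 1 (adjusted p = 0.0101) or replicate 2 (adjusted p = 0.0441), and in 3 of 9 other settings (down to 0.0240). Against Sirt1KO it stood at 0.00 ± 0.13 (adjusted p = 0.989).

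Bid links the death receptor pathway to mitochondria, since caspase-8 cleaves it into the active tBid. Among the BH3-only members examined here it was the most abundant, at chr6:120843136-120866838, with 41.4, 42.8 and 39.4 FPKM in EpiLC, 44.3, 43.6 and 42.3 FPKM in Sirt1KO Otx2KD, 61.7, 62.6 and 62.6 FPKM in Sirt1KO and 33.0, 31.6 and 34.4 FPKM in wild-type ESC. Sirt1KO was highest without overlap and wild-type ESC lowest without overlap. Sirt1KO exceeded wild-type ESC by 0.90 ± 0.04 (1.89 times the FPKM, adjusted p = 4.51e-10), and EpiLC did so by 0.31 ± 0.04 (adjusted p = 1.25e-05). Sirt1KO Otx2KD fell by 0.51 ± 0.04 against Sirt1KO (adjusted p = 1.75e-07) and remained 0.38 ± 0.04 above wild-type ESC (adjusted p = 4.22e-06). EpiLC and Sirt1KO Otx2KD did not pass the threshold against each other (-0.07 ± 0.04, adjusted p = 0.129). The median log2 fold change of all tested loci on chromosome 6 was 0.15 in Sirt1KO, 0.19 in Sirt1KO Otx2KD and 0.03 in EpiLC against wild-type ESC. With each chromosome's median removed, the Bid calls against wild-type ESC held, at 0.73 in Sirt1KO and 0.17 in Sirt1KO Otx2KD (adjusted p = 0.00496).

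Bad is a sensitiser that binds Bcl-xL and Bcl2 but not Mcl1, and it is held inactive by survival kinases. At chr19:7012559-7026411 it had 5.81, 3.30 and 4.18 FPKM in EpiLC, 17.7, 17.1 and 17.2 FPKM in Sirt1KO Otx2KD, 8.91, 9.46 and 11.2 FPKM in Sirt1KO and 14.9, 17.3 and 16.4 FPKM in wild-type ESC. EpiLC was lowest and Sirt1KO next, and Sirt1KO Otx2KD overlapped with wild-type ESC. Bad fell in EpiLC by 1.69 ± 0.13 (adjusted p = 1.37e-07), and in Sirt1KO by 0.67 ± 0.13 (adjusted p = 0.000787). Sirt1KO Otx2KD was 0.76 ± 0.13 higher than Sirt1KO (adjusted p = 0.000313) and differed from wild-type ESC by 0.10 ± 0.13 (adjusted p = 0.566). The locus overlaps that of Gpr137, for which the log2 fold changes were -0.73 in EpiLC and -0.51 in Sirt1KO against wild-type ESC and 0.31 in Sirt1KO Otx2KD against Sirt1KO. Without a statement of strand, reads from the pair cannot be assigned with certainty.

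Bik, a BH3-only protein of the endoplasmic reticulum, was the scarcest tested member in EpiLC and Sirt1KO but not in the other groups. There the mean of Bcl2l11 was lower, and in Sirt1KO Otx2KD that of Bmf was lower still. The Bik locus is chr15:83357291-83375065. It had 0.993, 1.502 and 1.35 FPKM in EpiLC, 4.27, 5.05 and 3.35 FPKM in Sirt1KO Otx2KD, 0.637, 0.559 and 1.27 FPKM in Sirt1KO and 3.74, 3.38 and 3.81 FPKM in wild-type ESC. The low groups were EpiLC and Sirt1KO, which overlapped with each other and with no other group. Against wild-type ESC, Bik fell by 1.03 ± 0.15 in EpiLC (adjusted p = 2.29e-05) and by 1.37 ± 0.15 in Sirt1KO (adjusted p = 2.07e-06). It was 1.53 ± 0.15 higher in Sirt1KO Otx2KD than in Sirt1KO (adjusted p = 9.70e-07), 5.14 times the FPKM, and 0.16 ± 0.15 above wild-type ESC (adjusted p = 0.398). The summed fibroblast or feeder markers, given above, run in the same order over the 4 groups as Bik, with Sirt1KO Otx2KD first and Sirt1KO last, and Bad shares the 2 highest groups. Of the 12 such markers tested, 12 fell in Sirt1KO, 12 rose in Sirt1KO Otx2KD against both Sirt1KO and wild-type ESC, and in EpiLC 7 fell and 1 rose. Their part in the Bik and Bad results was not tested.

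Among the BH3-only members together, the total level and the makeup both differed by group. The sum of the 5 genes was 63.9 to 66.2 FPKM in EpiLC, 69.5 to 73.9 FPKM in Sirt1KO Otx2KD, 78.5 to 81.6 FPKM in Sirt1KO and 57.9 to 60.8 FPKM in wild-type ESC, with no overlap. Bim made up 13.2% to 15.0% of that sum in EpiLC, against 3.43% to 3.57% in wild-type ESC. Bid made up 76.6% to 79.7% in Sirt1KO, against 52.9% to 57.0% in wild-type ESC. Bad held 4.98% to 8.95% in EpiLC, 23.4% to 24.8% in Sirt1KO Otx2KD, 11.1% to 13.7% in Sirt1KO and 25.7% to 29.0% in wild-type ESC. The sum and shares cover these 5 members alone and leave out the BH3-only relatives Pmaip1, Bbc3 and Hrk. Pmaip1 averaged 109 FPKM in EpiLC, 23.6 FPKM in Sirt1KO Otx2KD, 66.7 FPKM in Sirt1KO and 13.9 FPKM in wild-type ESC. In the same order of groups, Bbc3 averaged 24.0, 17.6, 17.8 and 14.6 FPKM. Neither the order of the sums nor the shares would hold with these genes added.

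**Figure D2:**
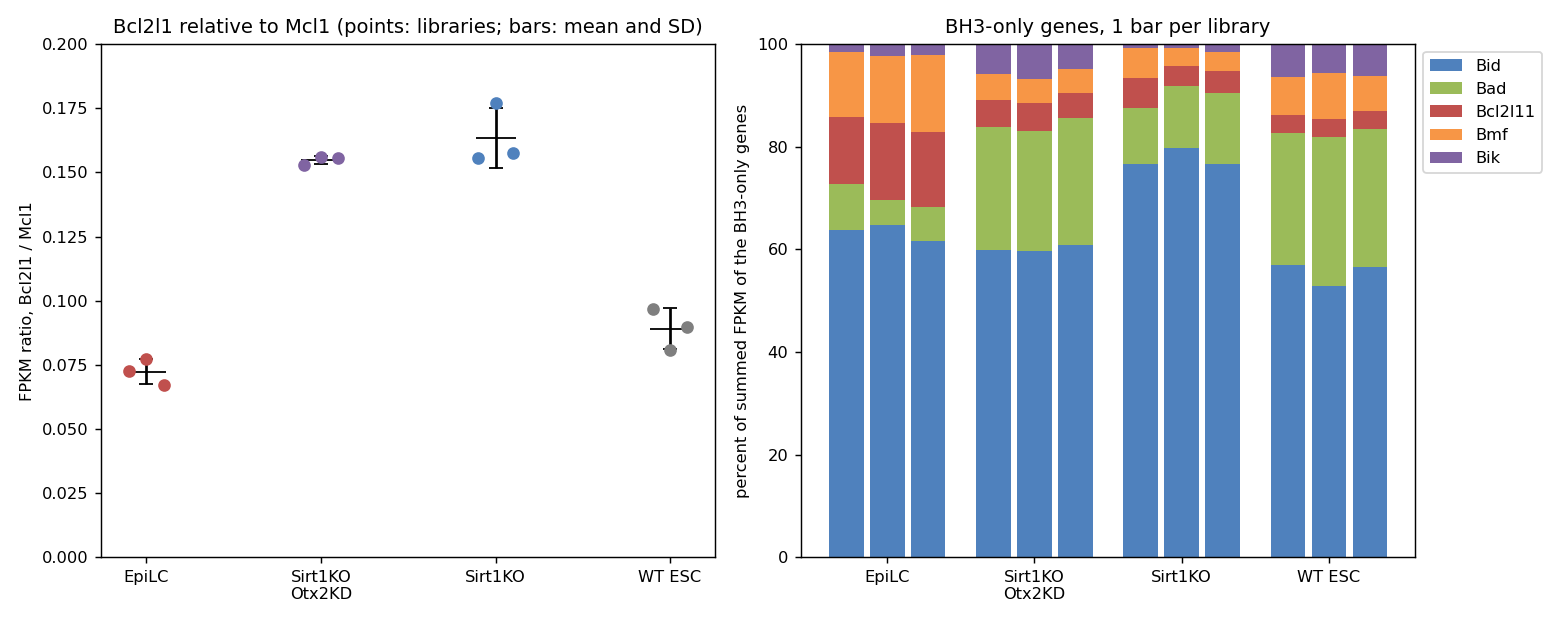
Left, FPKM of Bcl2l1 divided by that of Mcl1 in each library (points), with the group mean and SD (n = 3). Right, the percentage each gene holds of the summed FPKM of the 5 BH3-only members (without Pmaip1, Bbc3 and Hrk), 1 bar per library. The ratio is 0.153 to 0.177 over the 6 knockout libraries and at most 0.0968 in the others, and Bcl2l11 (Bim) takes 13.2% to 15.0% of the bars of EpiLC.

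Counted over the family, EpiLC had 5 members higher and 2 lower than wild-type ESC among the 9 tested. Of all tested loci, 74.6% were called in this comparison, 35.8% higher and 38.8% lower, so 7 calls among 9 members is near the background. The libraries of 7 members did not overlap, as for 76.8% of all tested loci. The median log2 fold change of the members was 0.31, beside -0.02 over all tested loci, and the median size without sign was 0.82, beside 0.40. Bcl2l11, Bok, Bmf, Mcl1 and Bid rose, and Bad and Bik fell.

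In Sirt1KO against wild-type ESC, 4 members were higher (Bid, Bok, Bcl2l11 and Bcl2l1) and 4 lower (Bik, Bad, Mcl1 and Bmf), where 65% of all tested loci were called, 32.4% higher and 32.7% lower. The libraries did not overlap for 8 members, beside 68.5% of tested loci. The median was -0.13, beside 0.01, and the median size 0.61, beside 0.29. This comparison shares the wild-type ESC libraries with that of EpiLC. Side by side, the log2 fold change of Mcl1 was 0.35 in EpiLC and -0.41 in Sirt1KO, and that of Bmf was 0.82 in EpiLC and -0.32 in Sirt1KO.

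In Sirt1KO Otx2KD against Sirt1KO, 3 members were higher (Bik, Bad and Mcl1) and 2 lower (Bok and Bid), where 62.6% of all tested loci were called, 31.1% higher and 31.5% lower. The libraries did not overlap for 5 members, beside 67.2% of tested loci. The median size of the change was 0.08, beside 0.26, and the fold changes of Bcl2l11, Bcl2l1 and Bmf were all within 0.01 of 0. Against wild-type ESC, 3 members were higher in Sirt1KO Otx2KD (Bcl2l11, Bcl2l1 and Bid) and 1 lower (Mcl1), where 53.9% of all tested loci were called, 27.1% higher and 26.8% lower. The libraries of 6 members did not overlap there, beside 61.3% of tested loci.

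**Figure D3:**
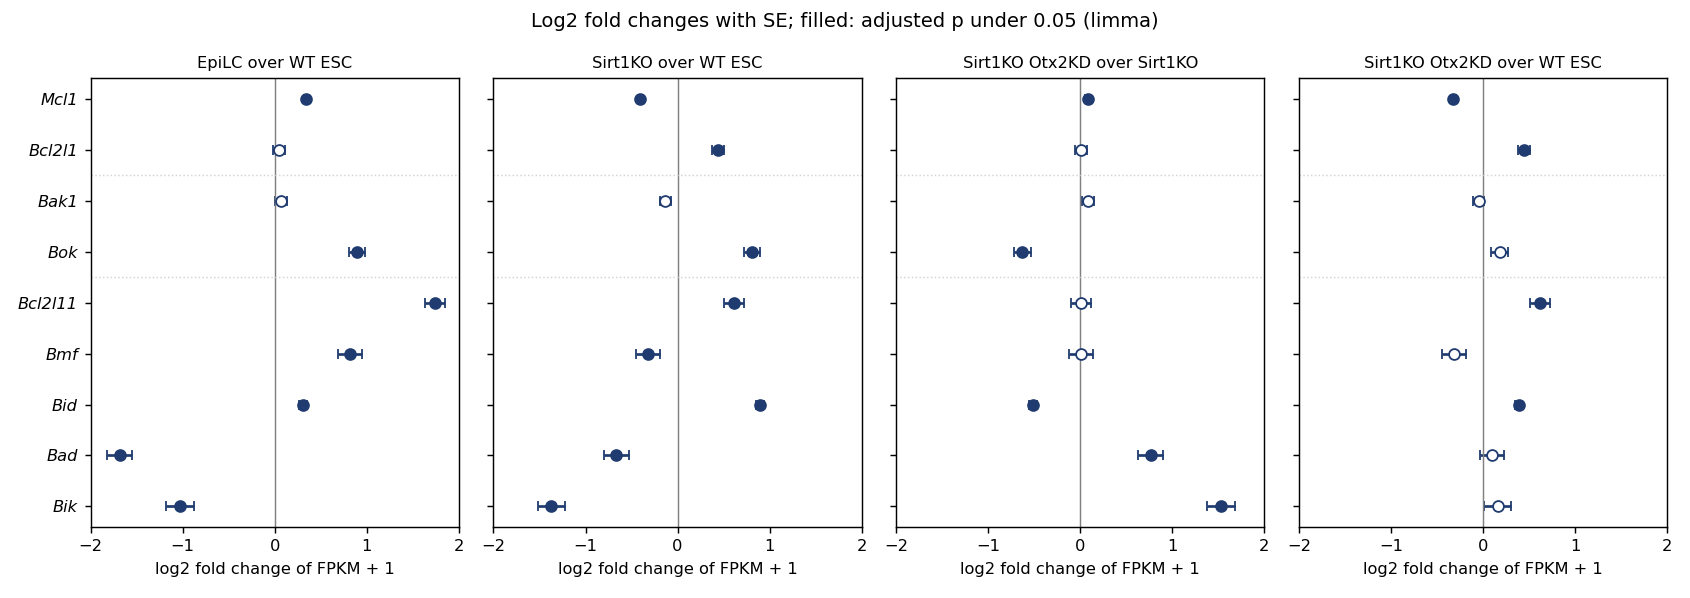
Log2 fold change of FPKM + 1 with SE for the 9 tested members in 4 comparisons, the first-named group over the second (filled points have an adjusted p under 0.05 in limma, and dotted lines part guardians, effectors and BH3-only genes). Bcl2l11 stands highest in EpiLC over wild-type ESC at 1.74, and Bik in Sirt1KO Otx2KD over Sirt1KO at 1.53.

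Set directly against each other, EpiLC and Sirt1KO differed in 4 members that were higher in EpiLC (Bmf, Bcl2l11, Mcl1 and Bak1) and 3 that were lower (Bad, Bid and Bcl2l1), where 69.1% of all tested loci were called, 34% higher and 35.1% lower. The libraries did not overlap for 7 members, beside 72.4% of tested loci. Bmf was 1.14 ± 0.13, Bcl2l11 1.13 ± 0.11 and Mcl1 0.75 ± 0.03 higher in EpiLC, and Bad fell by 1.02 ± 0.13. Bak1 was 0.20 ± 0.06 higher (adjusted p = 0.00945), which was lost without EpiLC replicate 2 (adjusted p = 0.0530). Bik was 0.34 ± 0.15 higher without passing (adjusted p = 0.0563), although it passed in 4 of the 12 fits that left out a library (adjusted p down to 0.00522) and in 3 of 8 other settings. EpiLC against Sirt1KO Otx2KD gave 4 higher (Bcl2l11, Bmf, Bok and Mcl1) and 3 lower (Bad, Bik and Bcl2l1) where 74.3% of all tested loci were called, 36% higher and 38.2% lower. The libraries of 7 members did not overlap there, beside 77.2% of tested loci.

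Over the 4 groups, the members with the largest moderated F were Mcl1, at rank 523 of 12320 loci, and Bid, at rank 1415, while Bak1 ranked 11132. Among the genes closest to Mcl1 in pattern, by the root mean square difference of centred log2(FPKM + 1) over the 12 libraries, were Trp53bp1 at 0.056 and Azi1 at 0.062. Closest to Bid were Tmem79 at 0.069, Vps35 at 0.083 and Elmo3 at 0.085. Vps35 and Elmo3 lie on chromosome 8 and Azi1 on chromosome 11, whose tested loci had medians of 0.46 and -0.49 in Sirt1KO against wild-type ESC. Against wild-type ESC, these medians were also 0.40 and -0.46 in EpiLC and 0.36 and -0.39 in Sirt1KO Otx2KD. In EpiLC against Sirt1KO they were -0.05 and 0.02. The shift on these chromosomes thus set wild-type ESC apart from the other groups, and its cause was not tested. No member lies on either chromosome, but their loci are among those counted in every comparison against wild-type ESC.

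Promoter windows of 9 members (15 windows of 250 bases before to 50 bases after a start, from RefSeq on GRCm38.p6) were searched on both strands for 3 short motifs that do not overlap one another. The Otx2 motif TAATCC was in 0 of the 15 windows, beside 7.06% of all 32851 mouse windows, and the E-box CACGTG was in 0, beside 7.15%. The FoxO motif TGTTTAC was in 1 window, of Bcl2l11, beside 3.65%. A match of letters is a description of the window and not a bound site.

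Other relatives of the family were read next, as 10 tested loci of 16 listed. In EpiLC 5 rose and 3 fell, in Sirt1KO 6 rose and 4 fell, and in Sirt1KO Otx2KD 3 rose and 4 fell against Sirt1KO and 4 rose and 3 fell against wild-type ESC. These counts, and those of the lists that follow, stand beside 74.6% of all tested loci called in EpiLC and 65% in Sirt1KO. For Sirt1KO Otx2KD the shares were 62.6% against Sirt1KO and 53.9% against wild-type ESC. Pmaip1, which encodes Noxa, a BH3-only partner of Mcl1, averaged 109 ± 2.33 FPKM in EpiLC, 23.6 ± 2.84 FPKM in Sirt1KO Otx2KD, 66.7 ± 10.3 FPKM in Sirt1KO and 13.9 ± 0.270 FPKM in wild-type ESC (SD, n = 3 each). Its log2 fold changes against wild-type ESC, 2.89 ± 0.10 in EpiLC and 2.17 ± 0.10 in Sirt1KO, were larger in size than those of the 9 tested members there. In Sirt1KO Otx2KD it was -1.46 ± 0.10 against Sirt1KO and 0.71 ± 0.10 against wild-type ESC. Bcl2l13, a mitophagy receptor, rose by 1.13 in EpiLC and 0.66 in Sirt1KO and fell by 0.46 in Sirt1KO Otx2KD against Sirt1KO. Bcl2l14 fell by 1.34 in EpiLC and was 0.73 higher in Sirt1KO Otx2KD than in wild-type ESC. Bnip3, a mitophagy receptor induced by hypoxia, was 0.88 higher in EpiLC and fell by 0.77 in Sirt1KO, where its relative Bnip3l fell by 0.53, and Bnip3 fell by 1.47 in Sirt1KO Otx2KD against wild-type ESC. Bax, the other main effector, was picked after its values were seen. It averaged 205 ± 16.9 FPKM in EpiLC, 279 ± 8.72 FPKM in Sirt1KO Otx2KD, 236 ± 3.31 FPKM in Sirt1KO and 269 ± 7.32 FPKM in wild-type ESC, and fell by 0.39 ± 0.05 in EpiLC (adjusted p = 5.40e-06). Bax also fell by 0.19 ± 0.05 in Sirt1KO (adjusted p = 0.00408, limma). In Sirt1KO Otx2KD it was 0.24 ± 0.05 higher than in Sirt1KO (adjusted p = 0.000632, limma).

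Among the apoptosome and caspase genes, 5 of 6 listed were tested. In EpiLC 2 rose and 1 fell, in Sirt1KO 1 rose and 2 fell, and in Sirt1KO Otx2KD 2 rose and 1 fell against Sirt1KO and 1 rose against wild-type ESC, where 74.6%, 65%, 62.6% and 53.9% of all tested loci were called in the same order of comparisons. Casp2 rose by 0.52 in EpiLC and 0.62 in Sirt1KO and fell by 0.65 in Sirt1KO Otx2KD against Sirt1KO. Apaf1, the scaffold that activates caspase-9, was 0.51 higher in EpiLC, fell by 0.20 in Sirt1KO, and was 0.43 higher in Sirt1KO Otx2KD than in Sirt1KO and 0.23 higher than in wild-type ESC. Casp9 fell by 0.18 in EpiLC, and Casp6 fell by 0.84 in Sirt1KO and was 0.80 higher in Sirt1KO Otx2KD than in Sirt1KO. Of the 7 inhibitor of apoptosis genes and their antagonists, 4 rose and 2 fell in EpiLC, 5 rose and 1 fell in Sirt1KO, 2 fell in Sirt1KO Otx2KD against Sirt1KO, and 4 rose and 1 fell there against wild-type ESC, beside the same shares. Birc2 rose by 0.54 in EpiLC and 0.46 in Sirt1KO, and Diablo, an antagonist of these inhibitors, rose by 0.31 in Sirt1KO. Birc3 fell by 0.59 in EpiLC, and Htra2 and Birc6 were 0.49 and 0.23 higher in Sirt1KO Otx2KD than in wild-type ESC. Birc5 fell by 0.89 in EpiLC and 0.32 in Sirt1KO, on chromosome 11, where the medians were -0.46 and -0.49.

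The death receptor branch, which Bid links to mitochondria, had 8 of 10 listed genes tested, with 1 higher and 6 lower in EpiLC and 2 higher and 2 lower in Sirt1KO. In Sirt1KO Otx2KD 4 were higher and 1 lower against Sirt1KO, and 3 higher and 1 lower against wild-type ESC. Of all tested loci, 38.8% were lower and 35.8% higher in EpiLC, and 65% were called in Sirt1KO, 62.6% in Sirt1KO Otx2KD against Sirt1KO and 53.9% against wild-type ESC. The death receptor Tnfrsf10b fell by 0.87 in EpiLC and 0.90 in Sirt1KO and was 0.99 higher in Sirt1KO Otx2KD than in Sirt1KO, the directions seen for Bad and Bik. Casp8, the protease that cleaves Bid, was at 0.556 FPKM in EpiLC, 0.845 FPKM in Sirt1KO Otx2KD, 1.21 FPKM in Sirt1KO and 1.61 FPKM in wild-type ESC, and fell by 0.75 in EpiLC. Cflar, which restrains caspase-8, rose by 0.64 in EpiLC and 0.38 in Sirt1KO. Tnfrsf1a fell by 0.61 in EpiLC, and it was 0.66 and Fadd 0.41 higher in Sirt1KO Otx2KD than in wild-type ESC, while Tradd, on chromosome 8, rose by 0.40 in Sirt1KO.

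All 8 listed partners at the mitochondrial membranes were tested, and 3 rose and 4 fell in EpiLC, 4 rose and 2 fell in Sirt1KO, and in Sirt1KO Otx2KD 2 rose and 5 fell against Sirt1KO and 2 rose and 4 fell against wild-type ESC. Of all tested loci 74.6% were called in EpiLC and 65% in Sirt1KO. For Sirt1KO Otx2KD the shares were 62.6% against Sirt1KO and 53.9% against wild-type ESC. Endog, a mitochondrial nuclease, fell by 1.01 in EpiLC and 1.19 in Sirt1KO and was 0.73 higher in Sirt1KO Otx2KD than in Sirt1KO. Vdac1, a pore of the outer membrane, fell by 1.08 in EpiLC and 0.42 in Sirt1KO, on chromosome 11, and Vdac3, on chromosome 8, where the medians were 0.40 and 0.46, rose by 0.24 in EpiLC and 0.42 in Sirt1KO. Vdac2, which is known to bind Bak, fell by 0.19 in EpiLC and was 0.18 higher in Sirt1KO, and Aifm1 fell by 0.27 in EpiLC.

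Regulators of the family counted 10 genes on 12 tested loci, of which 3 rose and 4 fell in EpiLC, 1 rose and 5 fell in Sirt1KO, and in Sirt1KO Otx2KD 6 rose and 1 fell against Sirt1KO and 4 rose and 4 fell against wild-type ESC. The 7 called of 12 in EpiLC and 6 of 12 in Sirt1KO stand beside 74.6% and 65% of all tested loci, and the counts for Sirt1KO Otx2KD beside 62.6% against Sirt1KO and 53.9% against wild-type ESC. Fbxw7 is counted on several loci at the same coordinates, and with so short a list no shortfall is read from these counts. Foxo1, a transcription factor known to drive Bim in other cell types, averaged 14.9 FPKM in EpiLC, 4.22 FPKM in Sirt1KO Otx2KD, 5.90 FPKM in Sirt1KO and 2.98 FPKM in wild-type ESC. It rose by 2.00 ± 0.08 in EpiLC and 0.79 ± 0.08 in Sirt1KO, the same order over the groups as Bcl2l11, whose Sirt1KO and Sirt1KO Otx2KD levels were not shown to differ. The Bok means and the summed primed markers share this order, and the part of Foxo1 in the Bcl2l11 levels was not tested. Trp53, the p53 gene, fell by 0.81 in EpiLC and 0.95 in Sirt1KO, on chromosome 11, and was 0.56 higher in Sirt1KO Otx2KD than in Sirt1KO. Huwe1, a ubiquitin ligase of Mcl1, rose by 0.59 in EpiLC. Usp9x, which removes ubiquitin from Mcl1, fell by 0.32 in Sirt1KO, and E2f1 fell by 0.33 there. Foxo3 was 0.54 and Mdm2 0.42 higher in Sirt1KO Otx2KD than in Sirt1KO.

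**Figure D4:**
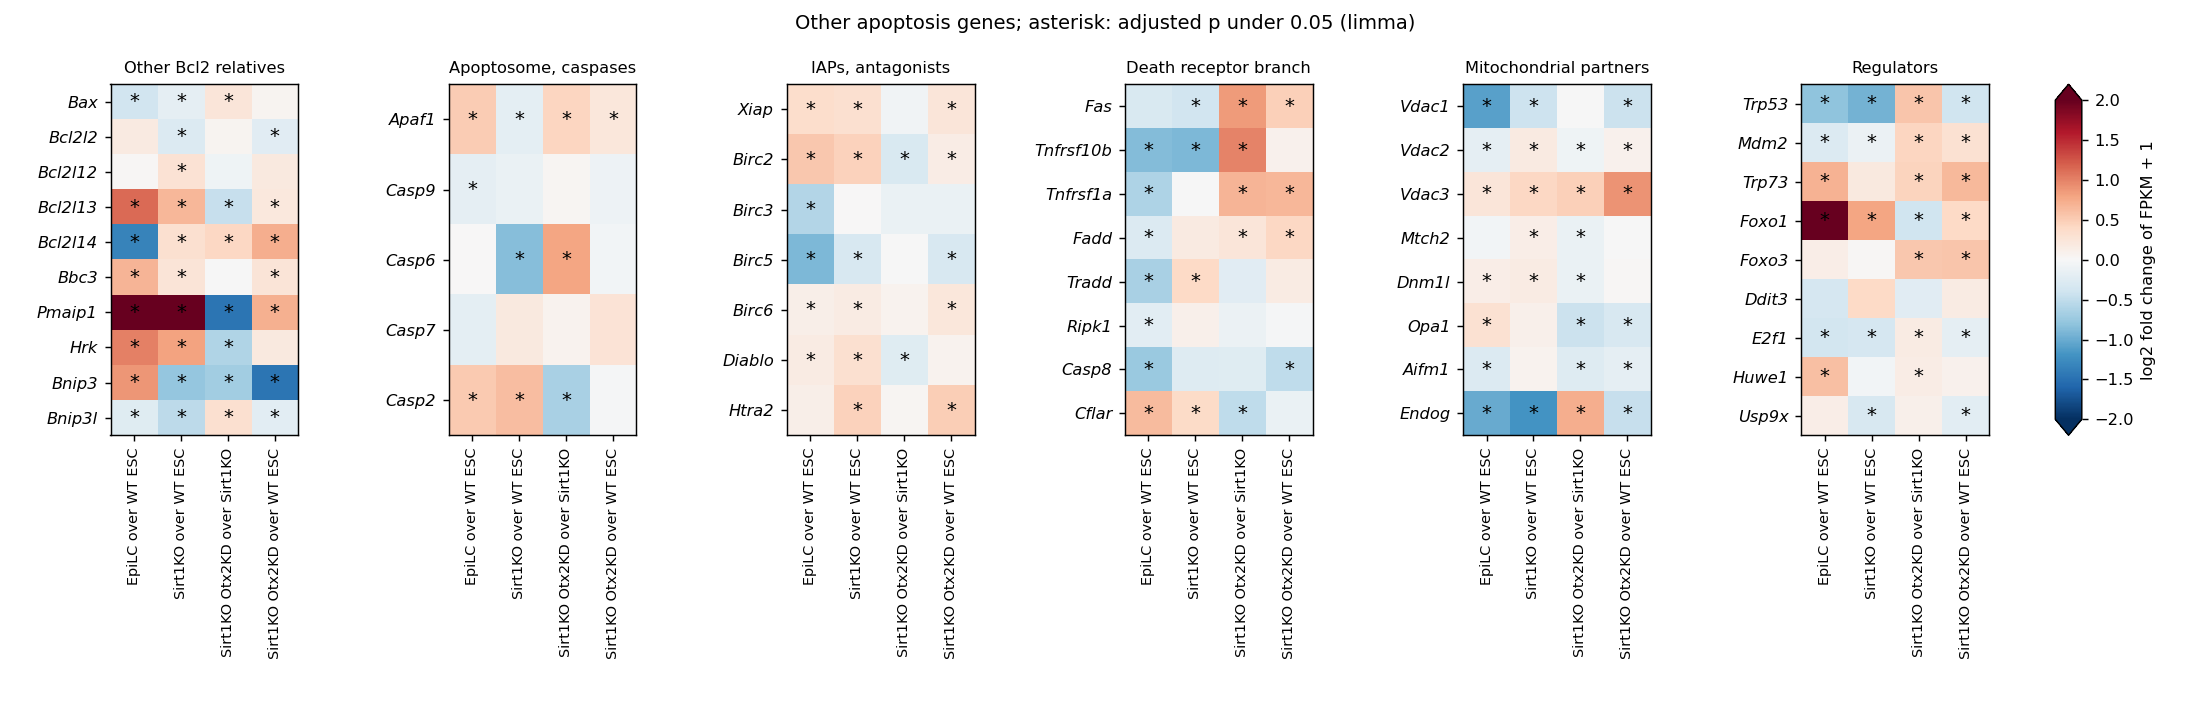
Log2 fold change of FPKM + 1 of other apoptosis genes in 4 comparisons, the first-named group over the second (asterisks mark an adjusted p under 0.05 in limma, and colours stop at 2 in either direction). Pmaip1 at 2.89 and 2.17 and Foxo1 at 2.00 reach the deepest red, in EpiLC and, for Pmaip1, also in Sirt1KO.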

How the data were processed

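RNA of 12 libraries (4 groups of 3, grouped by title) was analysed. The RNA was Trizol-extracted and oligo-dT purified before TruSeq library preparation, per the labels' protocols. Per the submitters' processing notes, TopHat, Cufflinks and Cuffdiff were used with mm9, and versions are not given in the sources used here. Each deposited file lists the authors' FPKM for every locus. The files give no counts or read totals, so no counting interval is given, and depth was estimated only relative to wild-type ESC replicate 1, from the most frequent ratio of FPKM among loci under 0.1 FPKM.

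Named loci with at least 1 FPKM in at least 3 libraries (12320) were fitted as log2(FPKM + 1), which understates changes of low genes, with 1 mean per group over all 12 libraries in limma 3.58.1 (R 4.3.3), with a robust empirical Bayes step that follows the mean trend and leaves 8 degrees of freedom to the residuals, adjusted by Benjamini-Hochberg at 0.05. The 4778 unnamed loci entered an alternative only. The fit was tested on simulated data with normal noise in which few loci were changed. Its behaviour where most loci are called, as here, was not tested. The members, the gene and marker lists and the tests were chosen with earlier results of these data known. All members are named, and of each other list up to 3 called genes per comparison with the largest moderated t; 2 genes that this rule chose are not reported here. Other settings were a pseudocount of 0.1, no filter or a stricter one, quantile or median-of-ratios scaling, the 2 groups alone, unnamed loci, a replicate block, removal of chromosome medians and leaving out each library. BH3 stretches were cut from GENCODE M21 transcripts by the annotated frame, and promoter windows are those of RefSeq (GRCm38.p6), with no entry for Bik; no coordinates were moved between mm9 and GRCm38. Figures were drawn with matplotlib 3.10.9.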

Additional observations from a re-analysis of the deposited data

How the results depend on the processing

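The number of members called stayed within 1.5 times the value reported, in all 6 comparisons and under every setting tried, as did the number of genes called: 6 to 8 members in EpiLC, 7 to 8 in Sirt1KO, 4 to 5 in Sirt1KO Otx2KD against Sirt1KO and 4 to 6 against wild-type ESC. The fold changes that changed sign were of members that had not passed the test. Under quantile normalization, Sirt1KO Otx2KD against Sirt1KO gave -0.046 for Bcl2l11, -0.054 for Bmf and -0.023 for Bcl2l1, and with chromosome medians removed Bid in EpiLC against Sirt1KO Otx2KD gave 0.069; the cause was not tested. With each library left out in turn, the log2 fold change of Bcl2l1 in EpiLC against wild-type ESC ranged from -0.016 to 0.10. In Sirt1KO Otx2KD against Sirt1KO the ranges were -0.10 to 0.14 for Bcl2l11, -0.10 to 0.18 for Bmf and -0.020 to 0.052 for Bcl2l1. Deviations of libraries with the same replicate number correlated between -0.11 and 0.17, and in no comparison were all above 0.1. For EpiLC against wild-type ESC, the same number gave 0.17 for replicate 2 and 0.10 for replicate 3. Other numbers gave at most -0.007 and 0.036 there. For replicate 1 the same number gave -0.03, below 0.053 for another number. With 3 libraries a group, these values cannot decide whether the replicate numbers pair the libraries. With the replicate number as a block, 7 members were called in EpiLC, 7 in Sirt1KO, 5 in Sirt1KO Otx2KD against Sirt1KO and 4 against wild-type ESC, the adjusted p of Bmf in Sirt1KO being 0.0561, and 9080, 7893, 7567 and 6500 genes were called. Depth limits Bcl2, which rests on few fragments, and 3 libraries a group limit the small differences of Bak1 and Bmf.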
